A study of Mus musculus with 12 samples.

Results

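The genes described here encode the receptors and the intracellular arm of TGF-β signaling, and were taken by their symbols from the expression tables of lens cells (LCs) after cataract surgery. They are the receptor genes Tgfbr1, Tgfbr2 and Tgfbr3, the Smad genes Smad2, Smad3, Smad4 and Smad7, and the repressor genes Ski and Skil, 9 of the 45859 genes in the tables, and each symbol matched 1 row. The samples were lens capsules with the LCs that stay attached to them once the fiber cells have been removed, from adult mice 2 months of age, collected either at 0 hours or at 24 hours post cataract surgery (PCS). WT mice were C57BL/6, and β8ITG-cKO mice, bred to lack the β8 integrin in the lens, were on a mixed C57BL/6 and 129S1/Sv background. In the knockout, the floxed Itgb8 gene was cut by the MLR10-Cre transgene, which is active in the lens, while the WT mice are labelled as wild type with no Cre named, so effects of the knockout, of Cre and of the strain background cannot be told apart. Each of the 4 conditions (WT 0 hours, WT 24 hours, β8ITG-cKO 0 hours and β8ITG-cKO 24 hours) had 3 libraries of total RNA, 12 in all, each made from a pool of capsules. The measure is FPKM, fragments per kilobase of transcript scaled to the fragments mapped in a library, a level per length that can be set side by side between genes. Beside the receptors and Smads themselves, the comparisons ask whether the genes of this pathway changed in the first day PCS, and whether the loss of the β8 integrin went with a different level or a different change.

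TGF-β dimers bind TGF-βRII, the product of Tgfbr2, which then recruits and phosphorylates TGF-βRI, the product of Tgfbr1; betaglycan, the product of Tgfbr3, is a co-receptor that presents ligand. TGF-βRI phosphorylates SMAD2 and SMAD3, which join SMAD4 and move to the nucleus to regulate transcription. SMAD7 is an inhibitory Smad whose gene is itself a target of the pathway and whose protein leads to receptor degradation, and SKI and SnoN, the product of Skil, bind the Smads and repress their targets. In the lens, TGF-β is known for driving LCs towards a myofibroblast fate after cataract surgery, and several integrins, β8 among them, can release it from its latent complex.

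By the files' coordinates, on mm10 (GRCm38), Tgfbr1 lies at chr4:47353222-47414926 on the + strand and Ski at chr4:155154075-155222592 on the - strand. Tgfbr2 lies at chr9:116087695-116175363 and Smad3 at chr9:63646766-63757994, both on the - strand. Tgfbr3 lies at chr5:107106570-107289595 on the - strand and Skil at chr3:31094804-31122923 on the + strand. In GENCODE M21, 7 of the 9 genes overlap no other gene. The Tgfbr3 locus holds 4 other annotated genes, of which Gm43422, on the same strand, touches Tgfbr3 exons, and an antisense gene, AC132418.2, lies within Smad4 outside its exons. How the authors' counting shared reads between overlapping genes, and whether it used strand, is not given in the sources used here, so the values of these 2 genes carry that uncertainty.

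The 250 bases before the annotated start were at hand for 3 members whose RefSeq start is also the 5′ boundary of the locus in the files, and they are shown because 2 of them, Tgfbr2 and Smad3, were higher at 24 hours PCS and the third, Tgfbr1, was not. They are RefSeq sequence of GRCm38.p6, written 5′ to 3′ on the strand of the gene, at chr9:116175364-116175613 for Tgfbr2, chr9:63757995-63758244 for Smad3 and chr4:47352972-47353221 for Tgfbr1. Capitals mark matches on either strand to CAGAC, the Smad-binding element (GTCTG on the other strand), or to TGANTCA, the AP-1 motif, which reads the same on both strands; the 2 motifs do not overlap in these windows.
Tgfbr2: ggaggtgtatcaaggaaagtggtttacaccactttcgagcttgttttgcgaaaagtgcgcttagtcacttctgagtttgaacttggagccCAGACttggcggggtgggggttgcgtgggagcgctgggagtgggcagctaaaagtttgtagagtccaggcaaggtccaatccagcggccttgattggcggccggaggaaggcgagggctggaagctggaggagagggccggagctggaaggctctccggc
Smad3: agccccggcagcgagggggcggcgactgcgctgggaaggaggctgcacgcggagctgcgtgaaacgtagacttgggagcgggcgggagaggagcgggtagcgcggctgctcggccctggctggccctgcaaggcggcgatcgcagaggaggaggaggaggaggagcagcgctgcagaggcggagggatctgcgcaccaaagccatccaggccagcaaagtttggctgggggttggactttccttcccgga
Tgfbr1: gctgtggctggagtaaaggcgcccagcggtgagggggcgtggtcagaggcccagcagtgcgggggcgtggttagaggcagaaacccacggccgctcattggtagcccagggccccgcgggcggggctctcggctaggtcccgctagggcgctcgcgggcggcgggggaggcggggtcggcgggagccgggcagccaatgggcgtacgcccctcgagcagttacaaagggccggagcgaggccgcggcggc
Tgfbr2 held 1 CAGAC match, 160 bases before the start, and Smad3 and Tgfbr1 held none, and none of the 3 windows held TGANTCA. Among 32851 RefSeq windows of the same length, 42.2% held CAGAC and 6.75% held TGANTCA on either strand, so a single CAGAC match is common. In base composition the windows held 58.4% G or C in Tgfbr2, 69.2% in Smad3 and 74.8% in Tgfbr1, against a median of 52.4% over all windows.

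The libraries summed to 446531 to 740140 FPKM, and their 10 highest genes held 36.0% to 49.6% of that. Lens epithelium markers were present in every library and summed to 10382 to 15020 FPKM at 0 hours and 3293 to 5604 at 24 hours (Pax6 59.9 to 93.5 FPKM, Foxe3 25.5 to 172.2 FPKM). Most of these sums was Cryab, a crystallin (9870 to 14324 FPKM, then 2967 to 5174). Foxe3, Pax6, Prox1, Pdgfra and Fgfr3 were also lower at 24 hours in both genotypes, while Epha2 was higher in β8ITG-cKO alone. Slc7a5 was higher in WT alone (14.1 to 15.3 FPKM, then 18.3 to 28.0), and Gja1 lower in β8ITG-cKO alone (111.8 to 115.8, then 89.2 to 97.2). Cdh1 rose in WT (55.6 to 63.0 FPKM, then 75.2 to 90.0) and fell in β8ITG-cKO (93.2 to 98.3, then 37.7 to 46.5). The summed FPKM of 14 fiber cell genes, mostly crystallins, was 32414 to 47876 at 0 hours and 7497 to 15982 at 24 hours. Retina markers (12 of 12 found, none at 0) summed to 904.3 to 1067.3 FPKM in β8ITG-cKO 24 hours and to 80.7 to 155.5 in WT 24 hours, and the WT 0 hours library of replicate 2 held 1220.1. Neutrophil markers (6 of 6 found) summed to 0.434 to 1.41 FPKM at 0 hours, 44.8 to 62.2 in WT 24 hours and 12 to 33.8 in β8ITG-cKO 24 hours, with the defining genes Ly6g and Mpo at 0 in all libraries. The WT 24 hours library of replicate 3 held 55.4 FPKM of corneal epithelium markers (6 of 7 found) against at most 12.1 in the other libraries. Most of that sum was Krt15 (46.4 FPKM). In WT 24 hours Krt12 was at most 4.62 FPKM and Pax9 at most 0.106, with Krt24 at 0. The sums of macrophages (8.98 to 18.1 FPKM at 0 hours, 22.8 to 43.6 at 24 hours) and corneal stroma (35.4 to 41.5, then 5.89 to 15.3) also moved with time. Those of iris and ciliary pigment cells were lower at 24 hours in WT (39.5 to 110.5, then 30.2 to 38.9) and β8ITG-cKO (35.2 to 39.4, then 20.6 to 31.4). The corneal stroma sum was mostly Ogn (29.5 to 39.3 FPKM, then 5.47 to 14.8), with Kera and Lum at most 0.305 FPKM. Of the macrophage genes, Cd68 was higher at 24 hours without overlap in both genotypes, and Lyz2, C1qa and Mrc1 in β8ITG-cKO alone. Csf1r, Adgre1 and C1qb overlapped between the times in both. Red blood cell markers were lowest in β8ITG-cKO 0 hours (6.52 to 15.8 FPKM, 36 to 219.7 elsewhere), vascular endothelium markers highest in β8ITG-cKO 24 hours (5.47 to 7.38, at most 4.25 elsewhere), and iris and ciliary pigment markers highest in WT 0 hours (39.5 to 110.5, at most 39.4 elsewhere). The red blood cell and vascular endothelium sums were thus higher at 24 hours in β8ITG-cKO, and in WT the times overlapped. Itgb8 was 7.26, 10.8 and 8.42 FPKM in WT 0 hours and 6.83, 4.58 and 7.31 in β8ITG-cKO 0 hours, then 9.08, 8.38 and 9.58 in WT 24 hours and 9.28, 11.8 and 10.3 in β8ITG-cKO 24 hours. The libraries labelled β8ITG-cKO and WT thus overlapped in Itgb8 FPKM at both times (log2 difference -0.45, SE 0.19, limma adjusted p = 0.209 at 0 hours and 0.19, SE 0.14, adjusted p = 0.486 at 24 hours), and a value over the whole gene need not show the loss of a floxed part.

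All 9 genes were measured in all 12 libraries. At 0 hours in WT the order of mean FPKM was Skil, Ski, Smad4, Smad3, Tgfbr3, Smad7, Tgfbr1, Smad2 and Tgfbr2, from 15 ± 3.29 (SD, n = 3) for Skil to 1.63 ± 0.344 for Tgfbr2. In that order the libraries of Skil and Ski, of Ski and Smad4, and of Smad3 and Tgfbr3 overlapped, and the other neighbours did not. Thus the repressors and the common partner Smad4 stood at the top, and the receptor kinase genes Tgfbr1 and Tgfbr2 and Smad2 at the bottom. At 0 hours in β8ITG-cKO only Ski and Skil traded places, and their libraries overlapped as well. At 24 hours Smad3 was the highest of the 9 genes by mean in both genotypes, having been the fourth at 0 hours. In WT 24 hours its libraries overlapped those of Smad7, the next gene, and in β8ITG-cKO 24 hours the lowest Smad3 library, at 21.4 FPKM, was above the highest Ski library, at 15.1 FPKM. Tgfbr2 was the lowest of the 9 genes in every condition, and its libraries overlapped those of Smad2, the next gene up, in WT 24 hours alone.

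**Figure D1:**
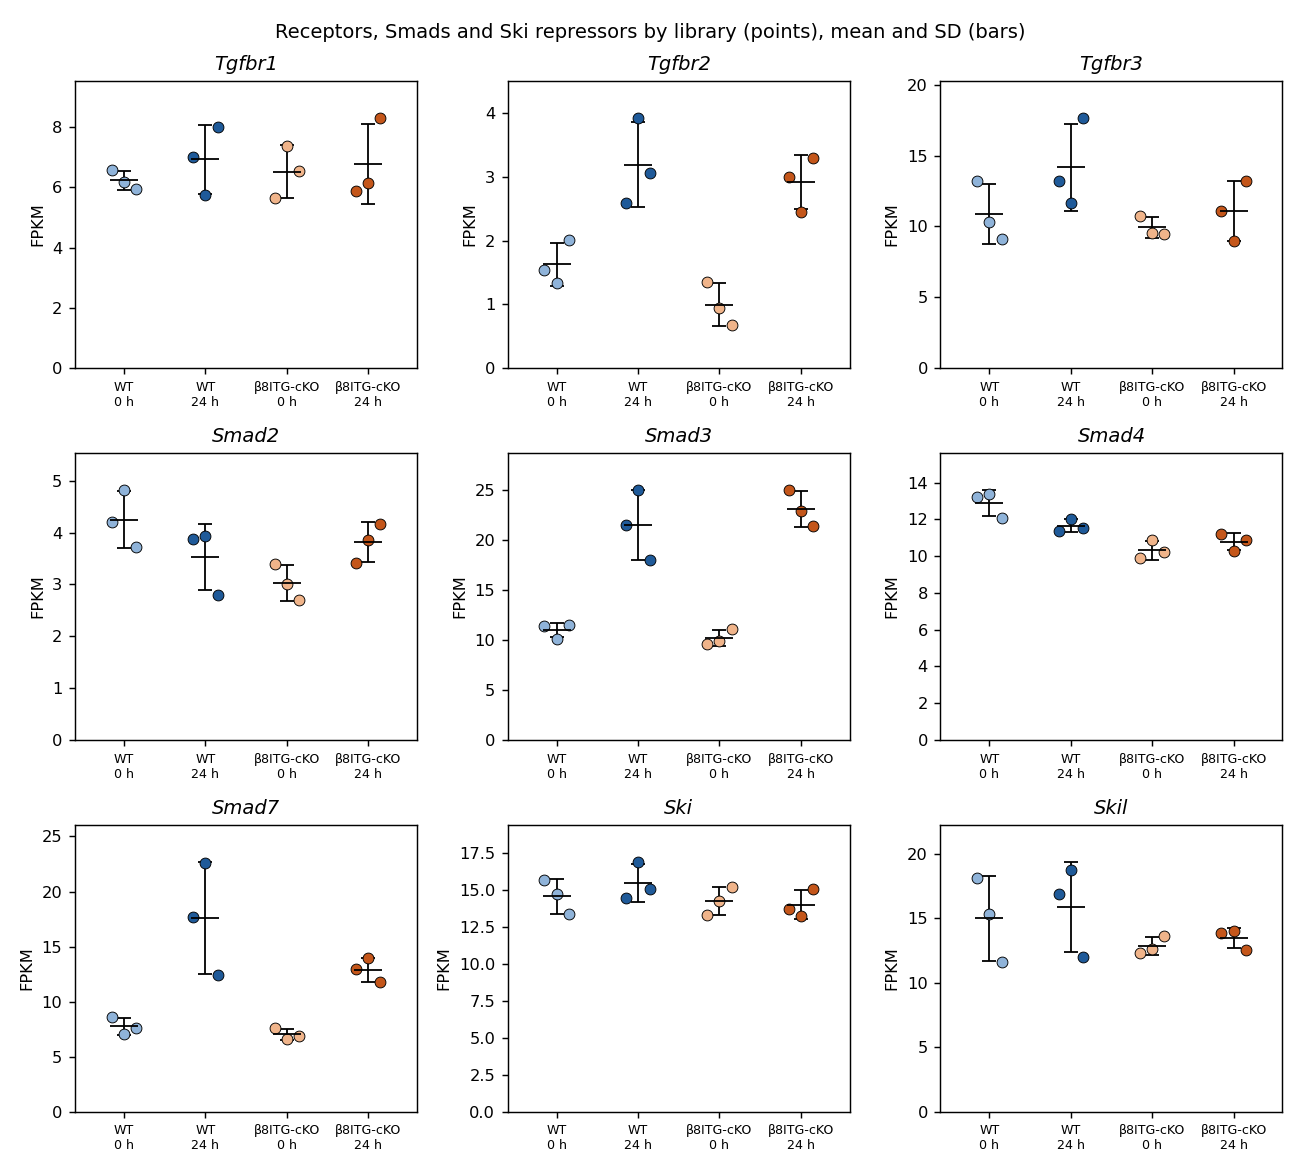
FPKM of the 9 genes, 1 panel each with its own y axis from 0, in WT 0 hours, WT 24 hours, β8ITG-cKO 0 hours and β8ITG-cKO 24 hours; points are the 3 libraries of a condition and bars their mean and SD. Smad3, Smad7 and Tgfbr2 sit higher at 24 hours in both genotypes with no overlap between the times, Smad3 from at most 11.5 FPKM at 0 hours to at least 18.0 FPKM at 24 hours.

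Among the receptor genes, Tgfbr2 rose by 24 hours PCS in both genotypes, while Tgfbr1 and Tgfbr3 did not pass the test in either. Tgfbr2 was 1.54, 1.33 and 2.00 FPKM in WT 0 hours and 2.59, 3.92 and 3.07 in WT 24 hours. In β8ITG-cKO it was 1.36, 0.947 and 0.682 FPKM at 0 hours and 3, 2.46 and 3.29 at 24 hours. All 6 libraries at 24 hours were thus above all 6 at 0 hours. The mean was 1.96-fold higher at 24 hours in WT (difference of 0.67 on the log2(FPKM + 1) scale, SE 0.19, limma adjusted p = 0.0319) and 2.93-fold higher in β8ITG-cKO (0.98, SE 0.16, limma adjusted p = 0.00219). At these low levels the pseudocount of 1 FPKM holds the log2 difference down, and with 0.1 FPKM it was 0.93 in WT and 1.5 in β8ITG-cKO. The call in WT was the weakest of those made for these genes and was lost with all libraries rescaled to the same median (0.49, limma adjusted p = 0.0973) or without the WT 0 hours library of replicate 1 or 2 or the WT 24 hours library of replicate 2 (limma adjusted p from 0.0911 to 0.101).

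Tgfbr1, the type I receptor that signals to the Smads, was 6.57, 6.17 and 5.93 FPKM in WT 0 hours and 7.01, 5.75 and 8 in WT 24 hours. In β8ITG-cKO it was 5.64, 7.38 and 6.53 FPKM at 0 hours and 5.87, 6.14 and 8.28 at 24 hours. The 4 conditions overlapped, and the 24 hours minus 0 hours difference was 0.12 in WT (95% interval -0.24 to 0.48) and 0.04 in β8ITG-cKO (-0.31 to 0.39), with signs that turned under rescaling. Tgfbr3, the co-receptor gene, was 13.2, 10.3 and 9.11 FPKM in WT 0 hours and 13.2, 11.7 and 17.6 in WT 24 hours, the highest value being from the library with the corneal epithelium markers. The β8ITG-cKO libraries held 10.8, 9.55 and 9.48 FPKM at 0 hours and 11.1, 8.99 and 13.2 at 24 hours. These ranges overlapped too, with a log2 difference of 0.35 in WT (95% interval -0.11 to 0.81) and 0.13 in β8ITG-cKO (-0.19 to 0.46), the latter turning negative under rescaling. On the log2(FPKM + 1) scale, the WT interval of Tgfbr3 included 0.67, the difference of Tgfbr2, and that of Tgfbr1 did not. The pseudocount holds Tgfbr2 down more than Tgfbr1 or Tgfbr3, which were higher, so these intervals do not compare fold changes. The fold of the WT means was 1.3 for Tgfbr3 and 1.11 for Tgfbr1, beside 1.96 for Tgfbr2.

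Of the receptor-regulated Smads, Smad3 rose and Smad2 did not pass the test. Smad3 was 11.4, 10.1 and 11.5 FPKM in WT 0 hours and 21.5, 24.9 and 18.0 in WT 24 hours. In the β8ITG-cKO libraries it measured 9.63, 9.86 and 11.1 FPKM at 0 hours and 24.9, 22.9 and 21.4 at 24 hours. Each of the 6 libraries at 24 hours was above each of the 6 at 0 hours. The mean was 1.96-fold higher at 24 hours in WT (log2 difference 0.90, SE 0.16, limma adjusted p = 0.00537) and 2.26-fold higher in β8ITG-cKO (1.1, SE 0.10, limma adjusted p = 0.000136). Both calls held under every alternative run, with log2 differences of 0.65 in WT and 0.82 in β8ITG-cKO once libraries were rescaled to the same median.

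Smad2, the close relative of Smad3 that is phosphorylated by the same receptor, was 4.20, 4.82 and 3.72 FPKM in WT 0 hours and 3.87, 3.93 and 2.79 in WT 24 hours. β8ITG-cKO values were 3.39, 3.02 and 2.69 FPKM at 0 hours and 3.41, 3.86 and 4.18 at 24 hours. The times overlapped in WT (log2 difference -0.22, SE 0.17, limma adjusted p = 0.372), while in β8ITG-cKO all 3 libraries at 24 hours were above those at 0 hours with 3.39 FPKM as the highest value at 0 hours and 3.41 as the lowest at 24 hours (0.26, SE 0.12, limma adjusted p = 0.125). Smad4, the partner shared by TGF-β and BMP Smads, was 13.2, 13.4 and 12.1 FPKM in WT 0 hours and 11.3, 12 and 11.6 in WT 24 hours. The β8ITG-cKO libraries held 9.87, 10.9 and 10.2 FPKM at 0 hours and 11.2, 10.3 and 10.9 at 24 hours. All 12 values lay between 9.87 and 13.4 FPKM, with a log2 difference over time of -0.13 in WT (SE 0.13, limma adjusted p = 0.444) and 0.06 in β8ITG-cKO (SE 0.09, limma adjusted p = 0.624). After rescaling, Smad4 was past the threshold as lower in WT 24 hours (-0.38, limma adjusted p = 0.0357), and the β8ITG-cKO difference turned to -0.21.

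Smad7, the inhibitory Smad, rose in both genotypes. It was 8.61, 7.04 and 7.61 FPKM in WT 0 hours and 17.7, 22.6 and 12.4 in WT 24 hours. In the β8ITG-cKO libraries it measured 7.57, 6.6 and 6.87 FPKM at 0 hours and 13.0, 14 and 11.8 at 24 hours. All libraries at 24 hours were above all at 0 hours, and the WT 24 hours libraries were the most spread of any group for this gene, their lowest value lying within the β8ITG-cKO 24 hours range. The mean was 2.27-fold higher at 24 hours in WT (log2 difference 1.05, SE 0.21, limma adjusted p = 0.00997) and 1.84-fold higher in β8ITG-cKO (0.79, SE 0.10, limma adjusted p = 0.000705). Both calls held under every alternative run, with 0.81 in WT and 0.52 in β8ITG-cKO after rescaling.

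The repressor genes Ski and Skil passed no test at either time or in either genotype. Ski was 15.7, 14.7 and 13.4 FPKM in WT 0 hours and 14.5, 16.9 and 15.1 in WT 24 hours. β8ITG-cKO values were 13.3, 14.3 and 15.2 FPKM at 0 hours and 13.7, 13.3 and 15.1 at 24 hours. All 12 values lay between 13.3 and 16.9 FPKM, and the log2 difference over time was 0.08 in WT (95% interval -0.23 to 0.39, negative under rescaling) and -0.02 in β8ITG-cKO (-0.25 to 0.20). After rescaling, Ski was past the threshold as lower in β8ITG-cKO 24 hours (-0.30, limma adjusted p = 0.0316). Skil was 18.1, 15.3 and 11.6 FPKM in WT 0 hours and 16.8, 18.7 and 12 in WT 24 hours. The β8ITG-cKO libraries held 12.3, 12.6 and 13.6 FPKM at 0 hours and 13.8, 14 and 12.5 at 24 hours. The WT libraries were more spread than the β8ITG-cKO ones at both times, and the log2 difference was 0.08 in WT (95% interval -0.43 to 0.58) and 0.06 in β8ITG-cKO (-0.15 to 0.28), both negative under rescaling.

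Counted over the 9 genes, 3 were higher and 0 lower at 24 hours in WT, Smad3, Smad7 and Tgfbr2, in a comparison where 20.9% of 15146 genes tested were higher and 8.81% lower. The same 3 were higher and 0 lower in β8ITG-cKO, where 35.4% of 15237 genes were higher and 10.7% lower, so that the share of called members was near the background there. The median log2 difference of the 9 genes was 0.12 in WT, beside 0.16 for all genes tested, and 0.13 in β8ITG-cKO, beside 0.23. Rescaling the libraries to the same median moved the median difference of all genes to -0.05 in WT and 0 in β8ITG-cKO, and changed the split of higher and lower calls from 3165 and 1335 genes to 2195 and 2444 in WT, and from 5394 and 1636 to 3217 and 3005 in β8ITG-cKO. With rescaled values 2 members were higher in WT (Smad3 and Smad7) and 1 lower (Smad4), and 3 were higher in β8ITG-cKO and 1 lower (Ski). With the study's further criteria, an over 2-fold change, a difference above 2 FPKM and a mean of at least 2 FPKM in one condition, 1 member was left in each genotype, Smad7 in WT, where 14.3% of genes met them, and Smad3 in β8ITG-cKO, where 15.1% did. The times did not overlap for 4 members in each genotype, Smad4 (lower) being the fourth in WT and Smad2 (higher) in β8ITG-cKO, beside 46.9% of all genes in WT and 56.9% in β8ITG-cKO. In bulk RNA, a change in the number of cells of a type and a change in RNA per cell cannot be told apart. The lens epithelium, fiber cell, neutrophil, macrophage, corneal stroma and iris and ciliary pigment marker sums moved with time in both genotypes. Retina sums rose in β8ITG-cKO (194.2 to 355.3 FPKM, then 904.3 to 1067.3). In WT they were lower at 24 hours, narrowly (156 to 1220.1 FPKM, then 80.7 to 155.5). Red blood cell and vascular endothelium sums rose in β8ITG-cKO. The part of these marker shifts in the differences of the members was not tested. Without the WT 0 hours library with the highest retina marker sum (replicate 2), 2 members were called in WT, Tgfbr2 being lost. The Tgfbr2 call was lost in the same way without WT 0 hours replicate 1 or WT 24 hours replicate 2. Without the WT 24 hours library with the highest corneal epithelium marker sum (replicate 3), 3 were called.

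**Figure D2:**
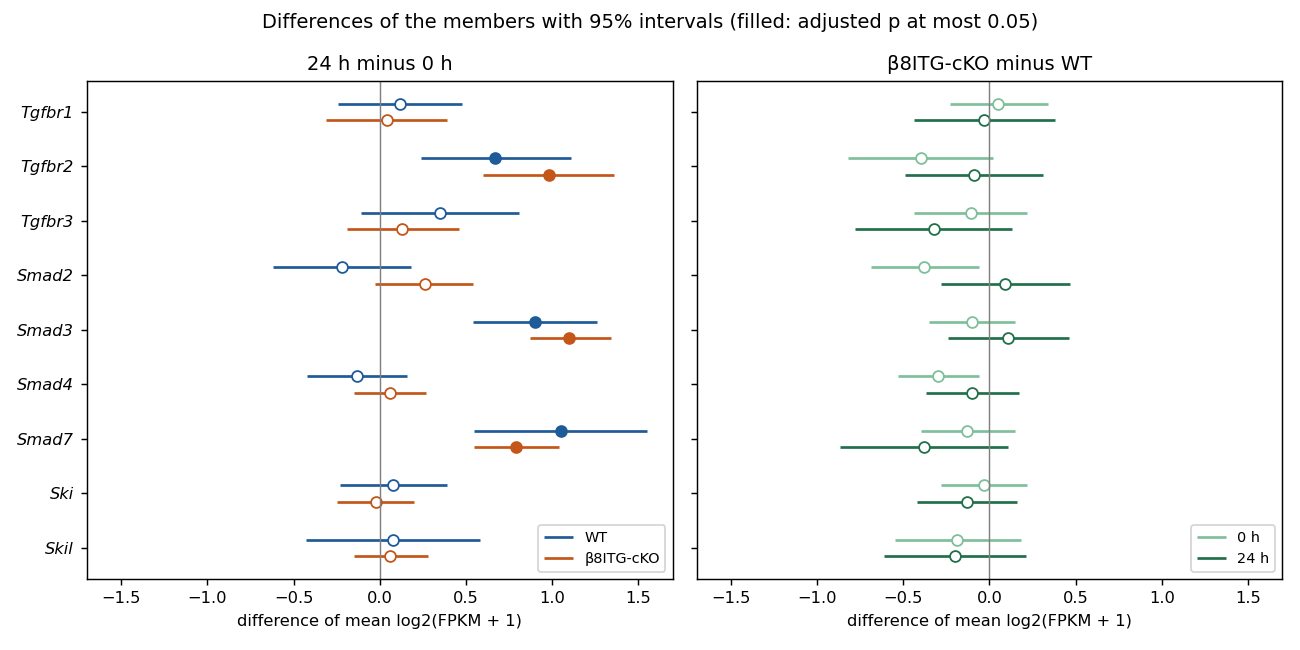
Differences of the 9 genes on the log2(FPKM + 1) scale (x axis) with 95% intervals, over time in each genotype (left) and between the genotypes at each time (right); filled points have a limma adjusted p of at most 0.05. The filled points are Tgfbr2, Smad3 and Smad7 over time in both genotypes, from 0.67 to 1.1, and no difference between the genotypes is filled.

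Between the genotypes no member passed the test. At 24 hours 0 of 9 were past the threshold by limma, where 6.29% of 15366 genes were, and 0 had an unadjusted p under 0.05. The largest differences there were those of Smad7 (-0.38, 95% interval -0.87 to 0.11) and Tgfbr3 (-0.32, -0.78 to 0.13). Smad3 was 21.5 ± 3.46 FPKM in WT 24 hours and 23.1 ± 1.78 in β8ITG-cKO 24 hours (SD, n = 3), a log2 difference of 0.11 with a 95% interval from -0.24 to 0.46. Skil had an interval from -0.61 to 0.21, and the 95% intervals of Tgfbr1, Tgfbr2, Smad2, Smad3, Smad4 and Ski all lay between -0.49 and 0.47. Smad4 was the 1 member whose genotypes did not overlap, with 11.3 FPKM as the lowest WT library and 11.2 FPKM as the highest β8ITG-cKO library, beside 26.5% of all genes. Retina marker sums were higher in β8ITG-cKO 24 hours than in WT 24 hours and neutrophil marker sums lower, as given above, and their part in the differences at 24 hours was not tested.

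At 0 hours 0 of 9 members were past the threshold by limma, where 6.94% of 14708 genes were, and 2 had an unadjusted p under 0.05. These were Smad4, at 12.9 ± 0.694 FPKM in WT and 10.3 ± 0.499 in β8ITG-cKO (log2 difference -0.30, SE 0.10, limma adjusted p = 0.122), and Smad2, at 4.25 ± 0.549 and 3.03 ± 0.348 FPKM (-0.38, SE 0.14, limma adjusted p = 0.14). For both genes every β8ITG-cKO library was below every WT library, beside 30.8% of all genes whose genotypes did not overlap at 0 hours. Tgfbr2 was 1.63 ± 0.344 FPKM in WT and 0.996 ± 0.341 in β8ITG-cKO at 0 hours, with an overlap of 1 library pair (-0.40, SE 0.18, limma adjusted p = 0.224). The comparisons over time and between genotypes share libraries, so a value that is low in one group of 3 enters more than one of them.

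Whether the change over time differed between the genotypes was tested in 1 fit over the 12 libraries. It was past the threshold for 0 of 9 members by limma, where it was for 9.39% of 15262 genes, and 1 member, Smad2, had an unadjusted p under 0.05. The change in β8ITG-cKO minus that in WT was 0.47 for Smad2 (SE 0.20, limma adjusted p = 0.173). Most of it came from the lower start in β8ITG-cKO (-0.38 at 0 hours), as the genotypes overlapped at 24 hours (0.09, 95% interval -0.28 to 0.47). For the 3 genes that rose, this difference in change was 0.21 for Smad3 (95% interval -0.18 to 0.60), 0.31 for Tgfbr2 (-0.23 to 0.85) and -0.26 for Smad7 (-0.80 to 0.28).

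Set within each library, 2 members of a pair can be compared without the scaling between libraries; the pairs were chosen after the values were seen and are described with no test. Smad3 was 2.1 to 3.08 times Smad2 in WT 0 hours and 5.55 to 6.45 times in WT 24 hours, and 2.84 to 4.13 times in β8ITG-cKO 0 hours and 5.12 to 7.32 times in β8ITG-cKO 24 hours, with no overlap between the times. The balance of the receptor-regulated Smads in RNA therefore moved towards Smad3 in both genotypes. The ratio of Tgfbr2 to Tgfbr1 was 0.216 to 0.338 in WT 0 hours and 0.370 to 0.682 in WT 24 hours, and 0.104 to 0.241 and 0.398 to 0.511 in β8ITG-cKO. The type II receptor gene stayed below the type I gene in every library. The ratio of Smad7 to Smad3 was 0.664 to 0.758 in WT 0 hours, 0.690 to 0.906 in WT 24 hours, 0.617 to 0.786 in β8ITG-cKO 0 hours and 0.519 to 0.610 in β8ITG-cKO 24 hours. All 3 β8ITG-cKO 24 hours libraries lay below the other 9, but narrowly, with 0.610 as their highest ratio and 0.617 as the lowest in β8ITG-cKO 0 hours. Neither gene alone differed between the genotypes past the threshold. How often other pairs of genes separate in this way was not tested. The ratio of Skil to Ski lay between 0.796 and 1.16 in all libraries, with the conditions overlapping.

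**Figure D3:**
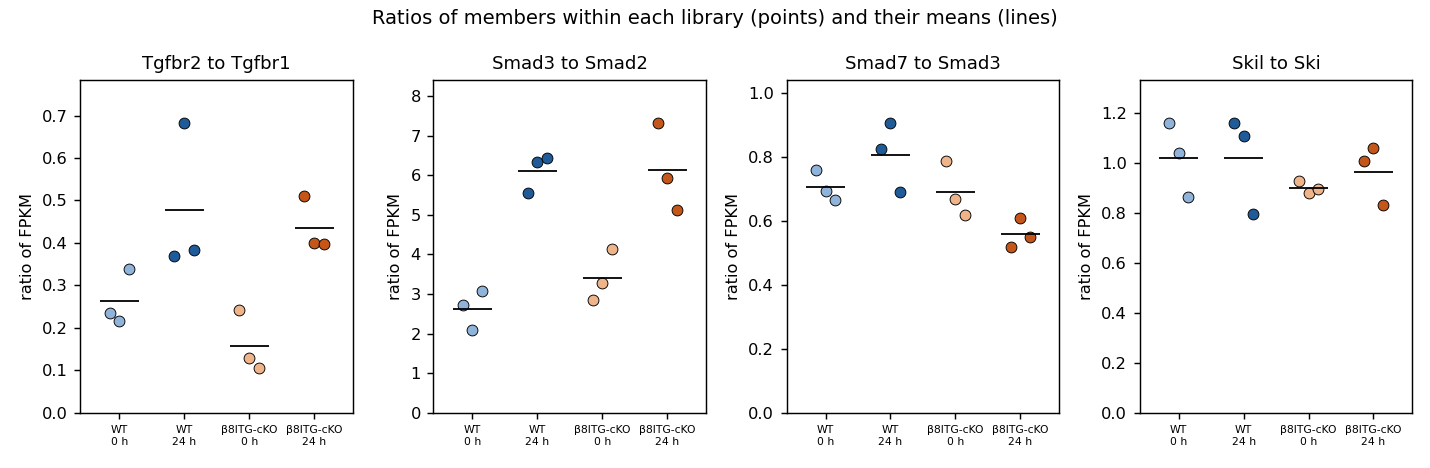
Ratios of FPKM of 2 members within each library (points, 3 per condition; lines are means), 1 panel per pair, with y axes from 0. Smad3 to Smad2 and Tgfbr2 to Tgfbr1 are higher at 24 hours in both genotypes. Smad7 to Smad3 is lowest in the β8ITG-cKO 24 hours libraries, at 0.519 to 0.610, narrowly below the lowest β8ITG-cKO 0 hours library at 0.617.

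The genes whose log2(FPKM + 1) ran most closely with each member over the 12 libraries, among the 7295 genes averaging 5 FPKM or more, differed between the members; these correlations are a description over libraries that share time, genotype and scaling. For Smad3 they were Igfbp3 (Pearson r = 0.99), a secreted binding protein of insulin-like growth factors, and Esm1 (r = 0.98), a secreted proteoglycan, and for Smad7 Tubb6 (r = 0.99), a β-tubulin, and Acta2 (r = 0.99), the smooth muscle actin that marks myofibroblasts. Igfbp3 had a mean of 0.332 FPKM in WT 0 hours, 13.1 in WT 24 hours and 24.8 in β8ITG-cKO 24 hours, and Esm1 had means of 0.122, 27.2 and 31.3 FPKM. Acta2 was 564.9 ± 385.3 FPKM in WT 24 hours and 264.1 ± 99.1 in β8ITG-cKO 24 hours, a difference that did not pass the test (-0.88, limma adjusted p = 0.419). For Tgfbr2 the closest were Eif1a, a translation initiation factor (r = 0.97), and Ifitm10 (r = 0.96). For Smad4 they were Nfil3, a transcription factor, and Aff4, an elongation complex scaffold (both r = 0.91), and for Smad2 Rab12 (r = 0.92) and the helicase gene Ddx5 (r = 0.91). The highest r was below 0.90 for the other members, with Atp5c1 (r = 0.89) and Ankib1 (r = 0.84) for Skil, 9530068E07Rik and Kcnh6 (both r = 0.85) for Tgfbr1, Ucp2 (r = 0.84) and Col6a1 (r = 0.83) for Tgfbr3, and Pdhb and Mrpl23 (both r = 0.79) for Ski.

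The rest of the pathway was read from 6 lists of genes by role, described by counts and medians. Over all genes tested, 20.9% were higher and 8.81% lower at 24 hours in WT, and 35.4% and 10.7% in β8ITG-cKO. Between the genotypes 6.94% were called at 0 hours and 6.29% at 24 hours. Among 15 other receptors and co-receptors, 9 were tested in WT, and 3 rose and 3 fell by 24 hours (median log2 difference -0.07, beside 0.16 for all genes); in β8ITG-cKO 10 were tested, and 4 rose and 2 fell (0.02, beside 0.23). After rescaling 3 were higher and 4 lower in WT, and 3 higher and 2 lower in β8ITG-cKO. The 6 calls in WT became 3 without WT 0 hours replicate 1 or 2, and the 6 in β8ITG-cKO became 3 without replicate 2 of either time. Acvr1, a type I receptor for BMPs and activins, went from 4.92 ± 0.309 to 12.3 ± 1.95 FPKM in WT (1.16, limma adjusted p = 0.00222) and from 4.83 ± 0.662 to 10.9 ± 0.887 in β8ITG-cKO (1.03, limma adjusted p = 0.000384). Acvr2b, a type II activin receptor, fell by 0.89 on the log2 scale in WT and by 0.38 in β8ITG-cKO, and was higher in β8ITG-cKO than WT at 24 hours (6.10 ± 0.512 beside 2.81 ± 0.372 FPKM, 0.90, limma adjusted p = 0.0105), a call lost without β8ITG-cKO 24 hours replicate 2 or 3. Cd109, a TGF-β co-receptor that dampens signaling, rose from 0.220 ± 0.114 to 5 ± 0.214 FPKM in WT and from 1.99 ± 0.342 to 3.83 ± 0.303 in β8ITG-cKO, starting higher in β8ITG-cKO (1.29, limma adjusted p = 0.0064). Of the 4 other Smads, Smad6, the inhibitory Smad of the BMP branch, fell where Smad7 rose, from 7.12 ± 0.199 to 3.82 ± 1.40 FPKM in WT (-0.79, limma adjusted p = 0.0266) and from 7.73 ± 0.699 to 4.25 ± 0.714 in β8ITG-cKO (-0.74, limma adjusted p = 0.00314). The WT call of Smad6 was lost without any 1 of the 3 WT 0 hours libraries. Smad1 and Smad5, the BMP-regulated Smads, were past the threshold as higher in β8ITG-cKO (0.63 and 0.35), neither of them after rescaling, and in WT 1 of 3 tested genes of this list was called.

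Of 20 anchors, ubiquitin ligases and phosphatases that act on receptors and Smads, all were tested over time. In WT 6 rose and 1 fell (median 0.24, beside 0.16 for all genes), and in β8ITG-cKO 7 rose and 1 fell (0.27, beside 0.23). After rescaling 4 were higher and 2 lower in WT, and 5 higher and 4 lower in β8ITG-cKO. Pmepa1, a Smad anchor and pathway target, rose from 8.08 ± 1.79 to 41.3 ± 16.8 FPKM in WT (2.14, limma adjusted p = 0.00337) and from 9.98 ± 1.45 to 33.3 ± 3.18 in β8ITG-cKO (1.65, limma adjusted p = 6.54e-05). Smurf1, a ubiquitin ligase that SMAD7 brings to the receptor, rose by 1.35 in WT and 1.60 in β8ITG-cKO on the log2 scale, and Cav1, the caveolin of receptor uptake, by 1.55 and 2.13. Usp11, a deubiquitinase, was the gene that fell (-0.80 and -0.60). At 0 hours Itch, a ubiquitin ligase, was higher (0.51, limma adjusted p = 0.0287) and Ppp1r15a, a phosphatase subunit and stress gene, lower in β8ITG-cKO (-1.69, limma adjusted p = 0.0168), neither of them called without β8ITG-cKO 0 hours replicate 2 or 3. At 24 hours no gene of this list passed between the genotypes by limma, with 1 at an unadjusted p under 0.05.

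Of 20 nuclear partners of the Smads, 17 were tested. In WT 7 rose and 0 fell (median 0.17, beside 0.16 for all genes), and in β8ITG-cKO 8 rose and 0 fell (0.26, beside 0.23). After rescaling 5 were higher and 5 lower in WT, and 7 higher and 2 lower in β8ITG-cKO. Runx1, a transcription factor that binds Smads, rose from 2.36 ± 2.11 to 17.7 ± 4.80 FPKM in WT (2.62, limma adjusted p = 0.00396) and from 0.482 ± 0.0280 to 12.8 ± 1.28 in β8ITG-cKO (3.21, limma adjusted p = 2.78e-06). Tgif1, a corepressor of Smads that acts beside Ski and Skil, rose from 22.5 ± 6.57 to 53.7 ± 12.1 FPKM in WT and from 14.2 ± 0.770 to 33.6 ± 4.26 in β8ITG-cKO (1.23 and 1.18, limma adjusted p = 0.00799 and 0.000174). Runx2, a further Smad partner, rose by 1.54 in WT and 1.22 in β8ITG-cKO (limma adjusted p = 0.0149 and 0.000299). Atf3 and Fosl1, stress-induced AP-1 and ATF family genes, were lower in β8ITG-cKO at 0 hours (-4.30 and -2.2, limma adjusted p = 0.00457 and 0.011). Atf3 was 46.7, 28.6 and 8.99 FPKM in WT 0 hours and 0.38, 0.12 and 0.17 in β8ITG-cKO 0 hours, and from there rose in β8ITG-cKO to 11.5, 8.64 and 8.31.

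The 21 target genes of the pathway described here were tested in WT and 20 of them in β8ITG-cKO; 14 rose and 2 fell in WT (median 1.42, beside 0.16 for all genes) and 15 rose and 2 fell in β8ITG-cKO (1.87, beside 0.23). After rescaling 13 were higher and 3 lower in WT, and 12 higher and 4 lower in β8ITG-cKO. This list was chosen with earlier results of these data known, so its counts and medians beside those of all genes are a description and no independent test. Tgfbi, which encodes a secreted matrix protein named for its induction by TGF-β, rose from 3.35 ± 1.54 to 187.5 ± 36.5 FPKM in WT (5.48, limma adjusted p = 6.24e-05) and from 8.16 ± 3.53 to 148.2 ± 16.9 in β8ITG-cKO (4.10, limma adjusted p = 3.7e-05). Tnc, encoding the matrix protein tenascin-C, rose by 6.07 in WT and 5.83 in β8ITG-cKO, Fn1, encoding fibronectin, by 4.73 and 3.57, and Tagln, a smooth muscle marker, by 4.30 and 4.54 on the log2 scale. The 2 that fell in each genotype were Id2 and Id3, targets that the BMP branch raises. At 0 hours 6 target genes were lower in β8ITG-cKO, among them Junb (-2.52, limma adjusted p = 0.0144), Thbs1, encoding the TGF-β-activating matrix protein thrombospondin-1 (-1.01, limma adjusted p = 0.0218), and Tagln (-1.01, limma adjusted p = 0.0206), and 1 was higher, Fn1 (0.84, limma adjusted p = 0.0206). These 7 calls at 0 hours became 2 without WT 0 hours replicate 1 or β8ITG-cKO 0 hours replicate 1, and 0 without β8ITG-cKO 0 hours replicate 2 or 3 (11 at an unadjusted p under 0.05 in either case). At 24 hours 0 of 20 passed between the genotypes by limma, with 4 at an unadjusted p under 0.05, and 1 passed as lower in β8ITG-cKO after rescaling. Their median difference between the genotypes at 24 hours was -0.32, beside 0.03 for all genes. Without WT 24 hours replicate 3, the library with the corneal markers, 1 passed as lower in β8ITG-cKO, with 11 at an unadjusted p under 0.05. Without WT 24 hours replicate 2 these counts were 2 and 5. Without any other single library 0 passed, with 3 to 5 at an unadjusted p under 0.05.

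Of 10 ligand and releasing integrin genes, 8 were tested. In WT 4 rose and 0 fell (median 0.64, beside 0.16 for all genes), and in β8ITG-cKO 5 rose and 1 fell (0.50, beside 0.23). After rescaling 4 were higher and 2 lower in WT, and 3 higher and 2 lower in β8ITG-cKO. Ltbp1, which holds latent TGF-β in the matrix, rose from 18.8 ± 3.81 to 74.7 ± 15 FPKM in WT (1.93, limma adjusted p = 0.000741) and from 16.7 ± 1.20 to 69.7 ± 13.7 in β8ITG-cKO (1.98, limma adjusted p = 5.68e-05). Tgfb1, a ligand gene, rose from 12.8 ± 1.26 to 40.1 ± 4.76 FPKM in WT and from 17.9 ± 1.83 to 29.6 ± 1.46 in β8ITG-cKO (1.57 and 0.70, limma adjusted p = 0.000537 and 0.00111). Itgb8 itself was among the 5 that rose in β8ITG-cKO, from 6.24 ± 1.46 to 10.5 ± 1.29 FPKM (0.68, limma adjusted p = 0.0132), beside 8.82 ± 1.79 and 9.01 ± 0.604 in WT (0.04, limma adjusted p = 0.873), and the difference between these changes did not pass the test of the interaction (0.64, limma adjusted p = 0.131). Itgav, the α subunit that pairs with β8, rose by 1.1 and 0.72, and Itgb5, another of its partners, fell in β8ITG-cKO to 67.7 ± 7.32 FPKM (limma adjusted p = 0.000259) after a higher start (147.9 ± 14.2 beside 102.7 ± 4.11 FPKM in WT 0 hours, 0.52, limma adjusted p = 0.0335, not called after rescaling or without any 1 of the 6 libraries). No gene of this list passed between the genotypes at 24 hours by limma, with 2 at an unadjusted p under 0.05, and after rescaling 1 gene passed as lower in β8ITG-cKO here and 1 among the nuclear partners.

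**Figure D4:**
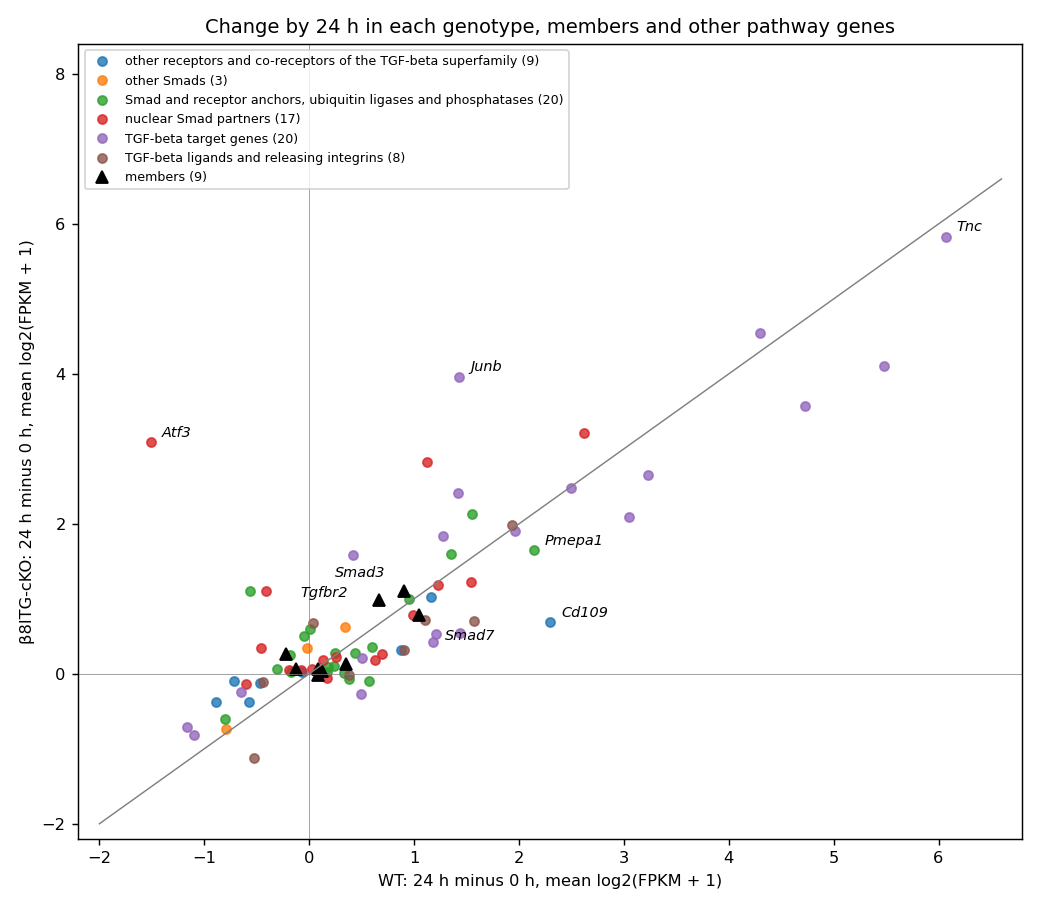
Change by 24 hours on the log2(FPKM + 1) scale in WT (x axis) and in β8ITG-cKO (y axis) for the 9 members (triangles) and the 77 genes of the 6 lists tested in both (dots, by list, with the number in each); the line marks equal change. Smad3, Smad7 and Tgfbr2 lie near the line at 0.67 to 1.1, well short of target genes such as Tnc, while Atf3 lies above the line at 3.09 in β8ITG-cKO and Cd109 below it at 0.69.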

How the data were processed

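Total RNA of lens capsules with attached LCs was sequenced as stranded libraries from low input. According to the submitters' processing notes, FastQC, cutadapt 1.12, TopHat2 2.1.0 and Cuffdiff 2.2.1 were used with mm10 (GRCm38.p5); the authors deposited FPKM per library and gene in 4 tables, 1 per pair of conditions, whose repeated library columns were identical. The same tables hold the authors' group means (8 columns), fold changes, p-values and q-values, which were not used. Counting error is unknown without counts; from the steps between FPKM of the lowest genes, 1 read was worth 0.915 to 1.15 times its worth in the first WT 0 hours library, so depths were alike.

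The 6 libraries of a comparison entered a limma-trend fit (limma 3.58.1, R 4.3.3) of log2(FPKM + 1), leaving out genes averaging under 0.5 FPKM, with Benjamini-Hochberg adjustment over all of them and a threshold of 0.05; intervals are 95%. The interaction was fitted over 12 libraries. The scripts were tested on simulated data. Python 3.11.15, pandas 2.3.3, numpy 2.4.6 and matplotlib 3.10.9 made the other tables and figures. Groups came from the sample titles; the labels do not tie replicate numbers across groups, and p-values measure the spread between pools.

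All 9 members are named throughout, as is Itgb8; of each list and comparison, up to 3 genes with the largest difference among those past the threshold that reach a group mean of 2 FPKM; and for each member the 2 genes most alike. Genes outside this rule that stand beside a small count were picked with their values in view. The members and lists were chosen with earlier results of these data known. Of the list of target genes, 1 gene is not reported here. Marker lists for corneal stroma, iris and ciliary pigment cells, macrophages, red blood cells and vascular endothelium were also summed. Alternatives were another scaling between libraries, another pseudocount, other filters, a replicate block, 1 fit over all libraries and each library left out.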

Additional observations from a re-analysis of the deposited data

Results flagged for a closer look

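None of the 9 receptor, Smad and repressor genes changed differently in the 2 genotypes by the test of the interaction. Among the other pathway genes, 8 of the 80 tested in the 6 lists (10%) did, by limma's test of the change over time in β8ITG-cKO minus that in WT, a share near the 9.39% of all genes tested, and the number ran from 5 to 14 without 1 library each. The difference was positive for Atf3 (4.59, limma adjusted p = 0.00537), Junb (2.53, limma adjusted p = 0.0118), Fosl1 (1.71, limma adjusted p = 0.0221) and Dach1 (1.52, limma adjusted p = 0.0302) on the log2(FPKM + 1) scale. Atf3, Junb and Fosl1 are early response genes, and in each the β8ITG-cKO libraries were lower at 0 hours. It was negative for Cd109 (-1.61, limma adjusted p = 0.00167), Tgfb1 (-0.87, limma adjusted p = 0.0114), Itch (-0.66, limma adjusted p = 0.0165) and Tgfb2 (-0.58, limma adjusted p = 0.037). Tgfb2 was 83.1 ± 3.16 and 83.0 ± 4.89 FPKM in WT and β8ITG-cKO at 0 hours and 156.4 ± 15.8 and 103.9 ± 6.09 FPKM at 24 hours (SD, n = 3).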

How the results depend on the processing

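The number of members past the threshold ranged from 2 to 3 in WT and from 2 to 4 in β8ITG-cKO, the lowest where a filter at a mean of 2 FPKM left Tgfbr2 out, and stayed at 0 in both comparisons between genotypes and in the interaction. Of 583 values of single members recomputed, 546 kept their direction and side of the threshold. The 6 calls lost were all Tgfbr2 over time in WT, and the 2 gained were Smad4 in WT and Ski in β8ITG-cKO after rescaling. The 29 values that changed sign were at most 0.22 in size and none was past the threshold. After rescaling, the change over time was -0.10 for Tgfbr1, -0.17 for Ski and -0.17 for Skil in WT, and -0.22 for Tgfbr1, -0.14 for Tgfbr3, -0.21 for Smad4 and -0.22 for Skil in β8ITG-cKO. Without 1 library each, the change over time ranged from -0.09 to 0.25 for Skil in WT, and from -0.10 to 0.12 for Tgfbr1 and -0.07 to 0.02 for Ski in β8ITG-cKO. Between genotypes at 24 hours it ranged from -0.17 to 0.07 for Tgfbr1, -0.20 to 0.03 for Tgfbr2, -0.03 to 0.16 for Smad2 and -0.01 to 0.22 for Smad3. At 0 hours it ranged from -0.03 to 0.14 for Tgfbr1, -0.22 to 0.03 for Tgfbr3 and -0.09 to 0.02 for Ski, and the interaction from -0.22 to 0.01 for Tgfbr1 and -0.19 to 0.15 for Skil. Of 390 counts over the gene lists, 76 moved by over 1.5 times. The cause was not tested.

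Replicates of the same number did not deviate together (correlations from -0.25 to 0.10 over 10880 genes). The labels do not tie the numbers, so the samples were not treated as paired. These correlations cannot exclude a pairing with small effects. With a replicate block, 2 members were past the threshold in WT, Tgfbr2 being lost (0.67, limma adjusted p = 0.0619), 3 in β8ITG-cKO and 0 in the other comparisons. Without a filter on the mean the WT call of Tgfbr2 was lost as well (limma adjusted p = 0.0799).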
